A study of Mus musculus with 2 samples.

Results

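The Mir378 genes encode a small family of microRNAs (miRNAs), short RNAs that lower the output of messenger RNAs whose sequence pairs with them. They are taken here as the genes named Mir378a, Mir378b, Mir378c and Mir378d in GENCODE M21, and all 4 were among the 2202 miRNA genes counted. Small RNA below 30 bases was sequenced from gastrocnemius, the main muscle of the calf, in female B6CASTF1/J mice, an F1 hybrid strain of the C57BL/6J and CAST/EiJ lines. Both libraries were made at postnatal day 4, the labels name no treatment, and together they formed 1 group. The labels number the females 3 and 4 but give both the same donor identifier, so that the spread between the libraries measures these preparations and may be partly technical. With no second condition, the comparisons that could be made were between family members, between the Mir378 genes and the other counted genes, and between the libraries.

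Mir378a is the founding member of the family and lies inside Ppargc1b, the gene for the coactivator PGC-1beta, which raises the expression of mitochondrial and fatty acid oxidation genes. In mouse studies miR-378 is known for its rise during myoblast differentiation, where it represses the myogenic repressor MyoR, and for acting on fatty acid use through carnitine O-acetyltransferase. A miRNA finds its targets mainly through its seed, bases 2 to 8 counted from its 5′ end.

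The mature miRNAs of Mir378b, Mir378c and Mir378d, from RefSeq on GRCm38.p6, are shown because their differences decide both which seeds the family offers and which reads can be told apart. The seed is in capitals.
miR-378b: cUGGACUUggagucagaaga
miR-378c: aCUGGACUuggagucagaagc
miR-378d: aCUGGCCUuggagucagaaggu
No 2 of these share a seed. Counted from the 5′ end of miR-378c, miR-378d differs by A6C, inside the seed, and by C21G near the 3′ end. miR-378b lacks the first base of miR-378c, which moves its seed by 1 base, and differs from it by C21A. Each of the 3 seeds occurred in 1 of the 1738 mature miRNAs searched, which did not include those of Mir378a. The Mir378a hairpin held the seeds of miR-378c and miR-378b and did not hold that of miR-378d. It contained 20 bases in a row of miR-378c, 19 of miR-378b and 15 of miR-378d.

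The hairpins of the same genes are shown with the mature miRNA in capitals, because its place in the hairpin differs between members.
Mir378b hairpin: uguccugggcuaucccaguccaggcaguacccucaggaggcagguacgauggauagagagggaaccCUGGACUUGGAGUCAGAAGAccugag
Mir378c hairpin: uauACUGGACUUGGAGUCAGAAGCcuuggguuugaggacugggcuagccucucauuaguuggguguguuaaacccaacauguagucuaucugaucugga
Mir378d hairpin: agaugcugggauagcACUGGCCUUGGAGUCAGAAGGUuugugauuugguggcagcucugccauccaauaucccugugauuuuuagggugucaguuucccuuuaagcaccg
The mature miRNA lay towards the 3′ end of the Mir378b hairpin, at positions 67 to 86 of 92, and the stretch that Mir378a shares with miR-378c lay at positions 43 to 62 of its 66 bases, also towards the 3′ end. In Mir378c and Mir378d it lay towards the 5′ end, at positions 4 to 24 of 99 and 16 to 37 of 110. Folded with RNAfold, the Mir378a hairpin had a predicted minimum free energy of -0.583 kcal/mol per base. Mir378b had -0.338, Mir378d -0.318 and Mir378c -0.273 kcal/mol per base. The median over the 335 detected genes was -0.430 (quartiles -0.481 and -0.383), and over the other 1867 counted genes it was -0.350 (quartiles -0.428 and -0.297). Mir378a thus lay beyond the lower quartile of the detected genes, while the other 3 members lay above their upper quartile. In the predicted fold 18 of the 20 shared bases of Mir378a were paired. Of the mature bases, 15 of 20 were paired in Mir378b and 15 of 21 in Mir378c, in each case with bases on 1 side. In Mir378d 13 of 22 were paired, 8 with bases downstream and 5 with bases upstream. The annotated hairpins include different lengths of flanking sequence, which affects these energies.

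The members sit in different genomic settings, and Mir378a is the member that lies in Ppargc1b. Mir378a (ENSMUSG00000105200.1) occupies chr18:61397835-61397900 on the minus strand in mm10. It lies in intron 1 of all 3 annotated Ppargc1b transcripts, on the same strand, 2531 bases downstream of the start of the host. Mir378b (ENSMUSG00000092985.1) occupies chr11:88352773-88352864 on the plus strand, opposite to Msi2, which encodes an RNA-binding protein of the Musashi family, within an intron of 2 of its 7 transcripts. Mir378c (ENSMUSG00000099036.1) occupies chr14:46954830-46954928 on the minus strand, opposite to Samd4, which encodes the RNA-binding translational repressor Smaug, within an intron of 4 of its 11 transcripts. Mir378d (ENSMUSG00000098756.1) occupies chr10:126710282-126710391 on the minus strand and overlaps no protein-coding gene. The nearest, Atp23, is 158036 bases away. Transcripts of the host genes were not analysed here.

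Mir378a was abundant in both muscle libraries and supplied nearly all reads of the family. It had 260078 own-strand reads in library 2 and 312313 in library 1. Scaled to gene counts as CPM (counts per 1000000 gene counts), its level was 59971 in library 2 (95% counting interval 59740 to 60202) and 56077 in library 1 (55880 to 56274). The mean was 58024 ± 2753 CPM (SD, n = 2). Reads that match several places count for no gene. By the reads assigned to genes, Mir378a was the third highest of all counted genes in each library. The gene next above it was Mir411 at 73057 ± 5406 CPM, an imprinted gene of the Dlk1-Dio3 domain, and the gene next below was Mirlet7i at 55909 ± 2029 CPM, a member of the let-7 family. Mir378a lay above Mirlet7i in both libraries, at 59971 against 57344 CPM in library 2 and 56077 against 54474 CPM in library 1. These gaps were smaller than the difference of either gene between the libraries. In bulk tissue, fewer cells of a type and less RNA per cell cannot be told apart.

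The other 3 members were detected at low levels, with detection set at 2 CPM or more in both libraries. Mir378c had 130 reads in library 2 and 115 in library 1, or 30.0 CPM (25.05 to 35.6) and 20.6 CPM (17.0 to 24.8), a mean of 25.3 ± 6.60 CPM (SD, n = 2). Mir378d had 26 reads in library 2 and 37 in library 1, or 6.0 CPM (3.92 to 8.78) and 6.64 CPM (4.68 to 9.16), a mean of 6.32 ± 0.458 CPM. Mir378b had 24 reads in library 2 and 39 in library 1, or 5.53 CPM (3.55 to 8.23) and 7.0 CPM (4.98 to 9.57), a mean of 6.27 ± 1.04 CPM. The order was therefore Mir378a, Mir378c, then Mir378d and Mir378b. Within each library the counting interval of Mir378c did not overlap those of Mir378d and Mir378b, and the intervals of Mir378d and Mir378b overlapped widely. In library 2 Mir378d was the higher of that pair, and in library 1 Mir378b was. All 3 lay above the limit that a count of 0 allows, 0.692 CPM for library 2 and 0.539 for library 1. These intervals and limits cover only the error of counting and treat each read as a separate molecule. Reads that are copies of 1 molecule would make that error larger.

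**Figure D1:**
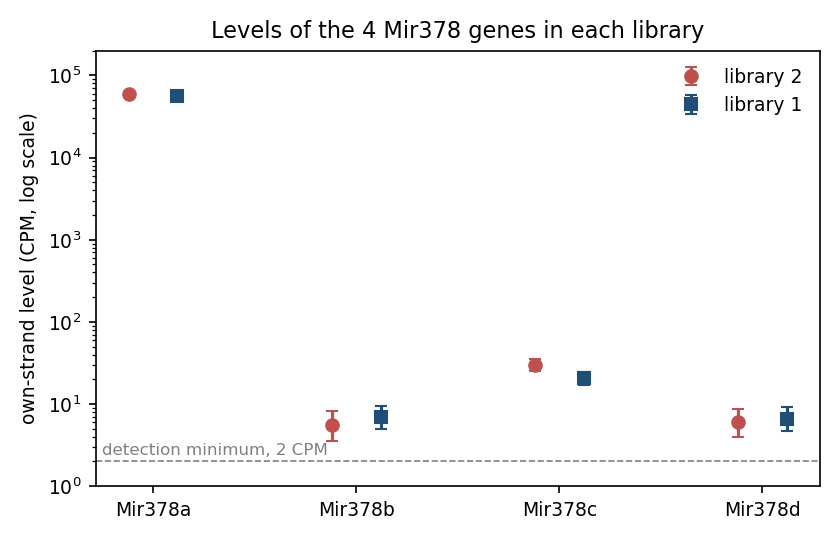
Own-strand level in CPM (log scale) of each Mir378 gene in library 2 (circles) and library 1 (squares), with exact 95% counting intervals, which are smaller than the symbols for Mir378a. Mir378a lies at 59971 and 56077 CPM, and the other 3 members lie between 5.53 and 30.0 CPM, above the dashed detection minimum of 2 CPM.

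The 4 genes together held 6.0% of gene counts in library 2 and 5.61% in library 1, a mean of 5.81% ± 0.276 (SD, n = 2). Mir378b, Mir378c and Mir378d contributed 180 of 260258 family reads in library 2, or 0.0692% (exact 95% interval 0.0594 to 0.0800). In library 1 they contributed 191 of 312504, or 0.0611% (0.0528 to 0.0704). The ratio of Mir378a reads to the reads of the other members was 1445 in library 2 and 1635 in library 1, or 1540 ± 135 (SD, n = 2). Among the 7 families with at least 4 counted genes under 1 number and at least 100 CPM in sum, a grouping made by gene symbol, Mir378 had the highest share in a single gene, 99.9% in Mir378a. The next was Mir29 with 60.5% in Mir29a, and the median over the 7 was 47.6%. Families differ in how many of their reads match several places and so go uncounted, and the part of that loss in these shares was not tested.

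**Figure D2:**
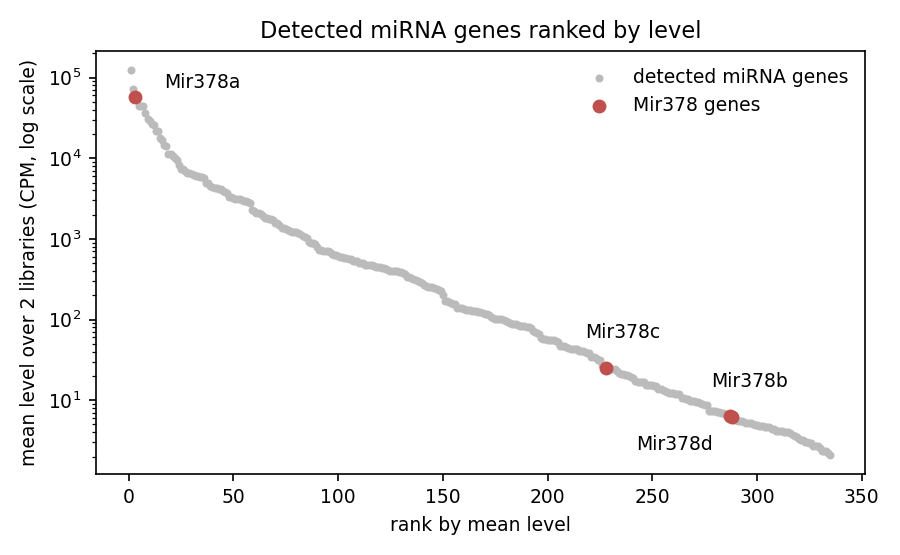
Mean level over the 2 libraries in CPM (log scale) against rank for the 335 detected miRNA genes, with the 4 Mir378 genes in red. Mir378a is at rank 3, Mir378c at 228, Mir378d at 287 and Mir378b at 288.

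Relative to the rest of the detected miRNA genes, the minor members stood low. The median level of the 335 detected genes was 123 CPM. Mir378c ranked 228, with 31.9% of detected genes below it. Mir378d at rank 287 and Mir378b at rank 288 had 14.3% and 14.03% of detected genes below them. All 4 members were detected, against 15.2% of all counted genes, and 1462 of the 2202 genes had no count in either library. Among the 120 detected genes within an intron of a protein-coding gene on the same strand, Mir378a was the highest, ahead of Mir335 in the imprinted gene Mest at 44684 ± 4075 CPM and Mirlet7g in Wdr82 at 36830 ± 256 CPM. Of 209 counted genes opposite to an intron of a protein-coding gene, 15 were detected (7.18%), and Mir378c and Mir378b ranked 9 and 13 among them. Mir378d ranked 140 of the 161 detected genes that overlap no protein-coding gene.

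Use of the strand decided whether Mir378a was counted at all. A second annotated miRNA gene, Gm25301, spans chr18:61397813-61397925 on the plus strand and covers the whole Mir378a hairpin, so reads there overlap a gene on each strand. In the column that ignores strand, Mir378a had 0 reads in both libraries, against 260078 on its own strand in library 2 and 312313 in library 1. The opposite-strand column of Gm25301 held 260078 reads in library 2 and 312316 in library 1, within 3 reads of the own-strand count of Mir378a. Reads on the Gm25301 strand itself numbered 0 in library 2 and 2 in library 1, equal to the opposite-strand reads of Mir378a in each library. With strand ignored, reads that overlap genes on both strands went to a line for ambiguous reads, and the own-strand reads of Mir378a equalled 50.6% of that line in library 2 and 44.6% in library 1. They were the most of any of the 64 counted genes that overlap another on the other strand. Mir378b, Mir378c and Mir378d overlap no counted gene. Their reads were the same with and without regard to strand, and each had 0 opposite-strand reads in both libraries.

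**Figure D3:**
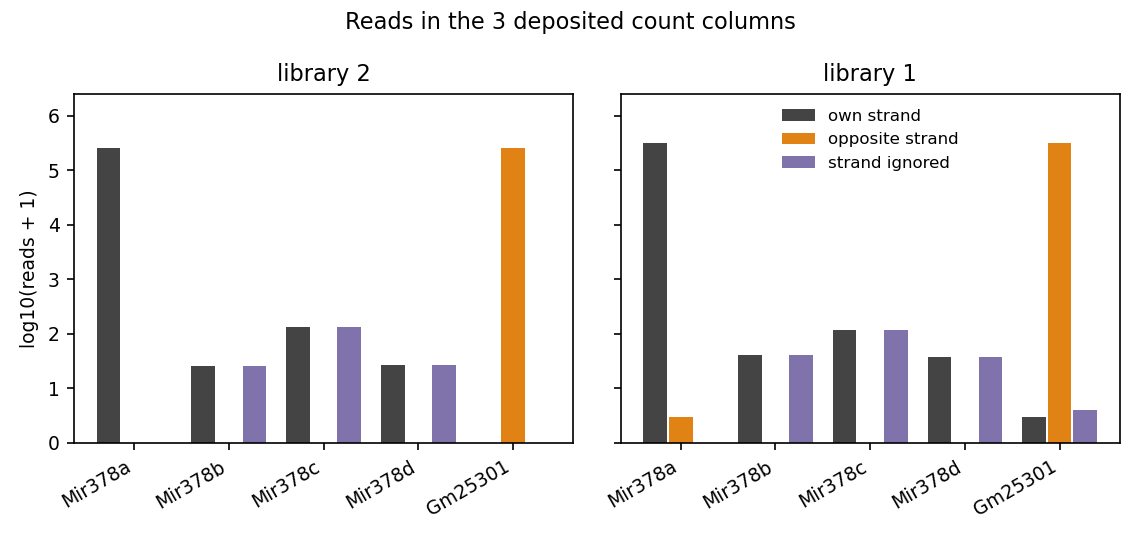
Reads in the 3 deposited count columns, as log10(reads + 1), for the Mir378 genes and Gm25301 in library 2 (left) and library 1 (right). Mir378a has its reads on its own strand and none with strand ignored, Gm25301 has a count within 3 reads of it in its opposite-strand column, and the other members have equal bars for own strand and strand ignored.

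How far reads can be assigned to a single member depends on the stretches they share. Mir378a and Mir378c share 20 bases, Mir378b shares 19 bases with each of them, and Mir378d shares 15 with Mir378a and 14 with Mir378b and Mir378c. Of all 20-base windows in a hairpin, 1 of 47 in Mir378a and 1 of 80 in Mir378c occurred in a counted gene elsewhere, and 0 of 73 in Mir378b and 0 of 91 in Mir378d. At 22 bases no window of any member was shared with a counted gene elsewhere. Reads that match several places are listed in a separate line, 37.6% of all reads in library 2 and 36.9% in library 1, and belong to no gene. The low levels of Mir378b and Mir378c are uncertain for reads no longer than the shared stretch, and the number of such reads is unknown. Of full-length miR-378b and miR-378c, only the last base lies outside the stretch shared with Mir378a. A Mir378a read that differs at that base could be counted for either, and the number of such reads was not tested. Matches outside the counted genes were not searched.

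A further counted gene resembles the family. Gm27881, at chr1:13262198-13262279 on the plus strand opposite to the nuclear receptor coactivator gene Ncoa2, shares 16 bases with Mir378a and with Mir378d and 15 with Mir378b and Mir378c. Its annotated transcript in GENCODE M21 is shown with the 16 bases shared with Mir378d in capitals.
Gm27881: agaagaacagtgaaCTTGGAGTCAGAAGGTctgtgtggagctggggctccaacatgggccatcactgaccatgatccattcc
It had 4 reads in library 2 and 2 in library 1, below the detection minimum. Gm44490, which shares 14 bases with Mir378c on the reverse complement, had 0 reads in both libraries.

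Between the libraries, 2 of the 4 members differed beyond counting error, both higher in library 2. Each gene's 2 counts were compared by a two-sided exact binomial test against TMM-scaled totals, with Benjamini-Hochberg adjustment over all 335 detected genes, which compares these libraries and no conditions. The test called 55.5% of detected genes, 28.7% higher and 26.9% lower in library 2, so that 2 of 4 is near the background. For Mir378a, higher in library 2, the log2 ratio was 0.07 (95% interval by counting 0.07 to 0.08), with an adjusted p of 2.93e-83 by the exact test. The difference is small, and 278 of the 335 detected genes had a larger absolute ratio, whose median was 0.21. For Mir378c, also higher in library 2, the log2 ratio was 0.52 (0.14 to 0.89), with an adjusted p of 0.0116 by the exact test, and 61 genes had a larger absolute ratio. Mir378b at -0.36 (-1.16 to 0.41, adjusted p = 0.495 by the exact test) and Mir378d at -0.17 (-0.95 to 0.59, adjusted p = 0.785 by the exact test) were not called, and their intervals are wide. When every gene with 1 count or more in either library entered the scaling and the test, Mir378a had a log2 ratio of 0.00477 with an adjusted p of 0.512 and Mir378c one of 0.45 with an adjusted p of 0.0648 by the exact test. Neither was then called, and the test takes the scaled totals as known. Of all called genes, 51.6% were higher in library 2 with the detected genes and 40.4% with that wider set.

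**Figure D4:**
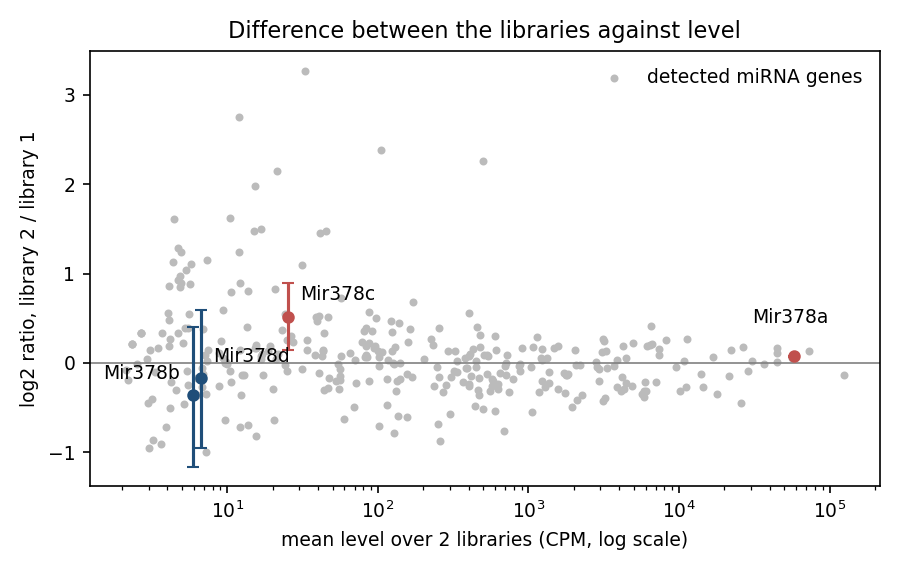
Log2 ratio of library 2 to library 1 against mean level in CPM (log scale) for the 335 detected genes, with 95% counting intervals for the Mir378 genes, called ones in red and others in blue, and Mir378b and Mir378d each drawn 6% away from its true level, in opposite directions, for legibility. Mir378a lies at 0.07 and Mir378c at 0.52, and the intervals of Mir378b and Mir378d include 0.

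Genes nearest to each member by level in both libraries were found by the distance of log2(CPM + 0.5) over the 2 libraries, which describes similar levels and no more. Nearest to Mir378a were Mirlet7i at a distance of 0.077, Mir411 at 0.47 and Mir335 at 0.54. Nearest to Mir378c were Mir200c at 0.0875, Mir182 at 0.18 and Mir7j at 0.19. Mir378b and Mir378d were each other's nearest gene at 0.13, followed for Mir378b by Mir8112 at 0.17 and Mir6516 at 0.25, and for Mir378d by Mir8112 at 0.15 and Mir582 at 0.15. Because genes were chosen for like levels in both libraries, a like ratio between the libraries follows from the choice.

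The tissue label was checked against miRNA genes of skeletal muscle, led by Mir206 at 124329 ± 7080 CPM. Of these, 8 of 9 were detected, against 15.2% of all counted genes. The lists of other cell types were also largely detected, with 4 of 4 leukocyte, 2 of 2 erythroid and 2 of 2 liver genes. The share detected therefore does not tell muscle from other tissues. Mir133a-2, with 2 reads in each library, was the muscle gene not detected, and the Mir1a and Mir133a genes were all below 20 CPM. Reads that match several places belong to no gene. Low counts of genes with numbered copies, such as the Mir1a, Mir133a, Mir365, Mir9 and Mir124a genes, are therefore uncertain and do not show absence. Brown fat also expresses Mir378a, and of 5 genes associated with brown fat 4 were detected. Mir455 led them at 1334 ± 52.0 CPM and made up most of their sum, which was 1420 CPM in library 2 and 1342 in library 1, while Mir193b was at 18.6 ± 1.42 CPM and both Mir365 genes were below 4 CPM in each library. The epithelial list summed to 375 CPM in library 2 and 267 in library 1, with 5 of 7 genes detected and none at 0. The 5 were all called higher in library 2, against 28.7% of all detected genes. Of the liver list, Mir122 was at 824 CPM in library 2 and 169 in library 1, whereas Mir192 was lower in library 2, at 9.22 CPM against 14.9 in library 1. The leukocyte list summed to 408 CPM in library 2 and 657 in library 1, and the endothelial gene Mir126a was at 21931 CPM in library 2 and 29519 in library 1. The cartilage and connective tissue list summed to 4243 CPM in library 2 and 5418 in library 1. Of the smooth muscle list, Mir143 was higher in library 2, at 28592 CPM against 24964 in library 1, and Mir145a was lower, at 508 CPM in library 2 and 545 in library 1. The neural list, with 3 of its 10 genes at 0, summed to 1347 CPM in library 2 and 1186 in library 1, and the erythroid list to 119 in library 2 and 96.8 in library 1. The part of other cell types in the ratios of Mir378a and Mir378c was not tested.

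Mir378a was then set beside a list of 22 miRNA genes known for a role in lipid or mitochondrial metabolism, in brown fat or in control of the PGC-1 coactivators. Of these, 21 were counted and 18 detected, against 15.2% detected of all counted genes. The list was drawn from known genes with earlier results of these data known. Its share detected therefore says little about metabolic genes. The detected listed genes had a median level of 218 CPM, against 123 CPM over all detected genes. Mir378a exceeded every one of them in both libraries and on its own had more reads than the whole list, which summed to 50730 CPM in library 2 and 50762 in library 1. The highest listed gene was Mir143, known from smooth muscle and adipocyte differentiation, at 26778 ± 2565 CPM. Next came Mir23a, of a cluster known to act on muscle atrophy genes, at 14453 ± 1741 CPM, and Mir27b, which acts on lipid metabolism genes, at 4139 ± 594 CPM. Other miRNA genes placed in introns of metabolic genes were far lower. Mir33 in Srebf2, the gene for a regulator of sterol synthesis, was at 12.2 ± 1.99 CPM, and Mir107 in the pantothenate kinase gene Pank1 at 233 ± 24.8 CPM. Mir103-2 in Pank2 was at 12.2 ± 1.01 CPM, and Mir103-1 in Pank3, with 6 reads in library 2 and 11 in library 1, was below detection. Mir103-1 and Mir103-2 are known to give the same mature miRNA, and Mir23a and Mir27b have close paralogs, so their levels are uncertain. Between the libraries 4 of the 18 detected listed genes were higher in library 2, 6 were lower and 8 were not called, against 55.5% called among all detected genes. The median log2 ratio of the 18 was 0.00, against 0.03 over all detected genes.

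**Figure D5:**
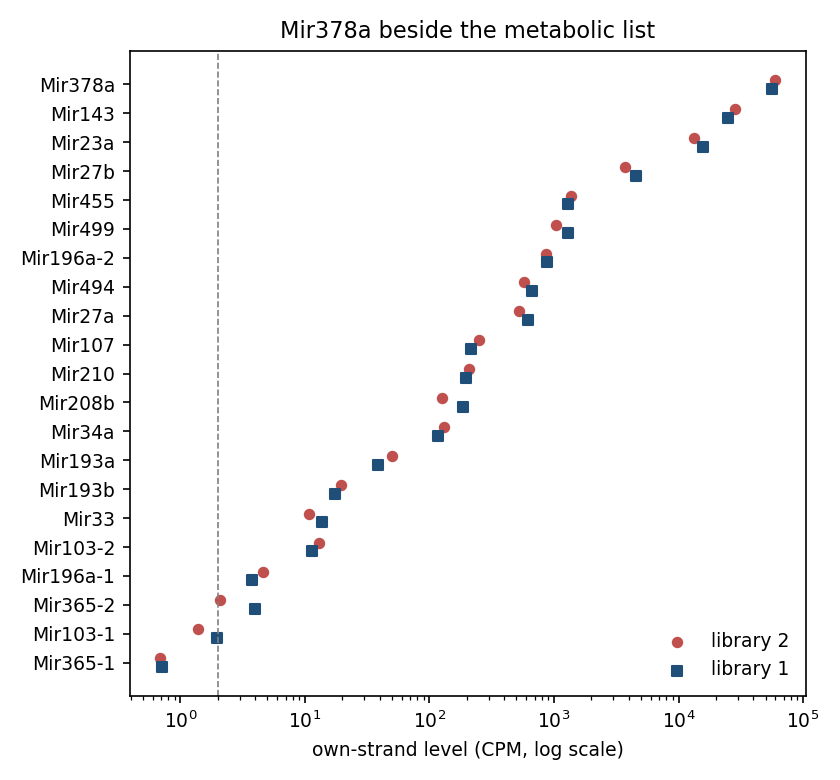
Own-strand level in CPM (log scale) of Mir378a and of the 20 listed metabolic genes with a read, in library 2 (circles) and library 1 (squares), with the detection minimum of 2 CPM dashed. Mir378a is at the top in both libraries, above Mir143 at 28592 CPM in library 2 and 24964 CPM in library 1.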

How the data were processed

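The authors deposited raw counts per miRNA gene for each of 2 libraries, on mm10 and GENCODE M21 (per the labels and a deposited text file), in 3 columns that the sums show to be strand ignored, own strand and opposite strand. For aligner and counter the sources used here give no name. All 2202 identifiers matched GENCODE genes of type miRNA. The 4 lines without a gene (unmapped, multimapping, no feature, ambiguous) were left out of totals and held 48.9% of reads in library 2 and 46.6% in library 1. Library 2 had 8487769 reads, 4336759 of them in genes, and library 1 had 10426665 and 5569392.

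Own-strand counts were scaled to CPM. Poisson and ratio intervals are exact at 95%. The counting test used TMM totals from edgeR 4.0.16 (R 4.3.3). DESeq2 1.42.0 size factors, library totals, other filters, pseudocounts and denominators were alternatives. On simulated counts for the 335 detected genes, with counting error only, the library test called 93.0% of 2-fold, 82.0% of 1.5-fold and 2.22% of unchanged genes. There the test was given the totals used to draw the counts. These rates therefore leave out any error of the TMM scaling used for the real counts. Folds used RNAfold of ViennaRNA 2.7.2, other steps Python 3.11.15, scipy 1.17.1 and matplotlib 3.10.9. RefSeq sequences were matched by symbol for 3 members.

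Members, gene lists and tests were chosen with earlier results of these data known. Genes named by rule were the members, genes overlapping them or sharing 14 bases or a seed with them, the 3 nearest by level to each, the 3 highest of the metabolic list and the neighbours of Mir378a in rank. Others, among them the intron-hosted genes, Mir29a and marker genes, were chosen after seeing their values. Of 62 symbols in 11 lists, 61 were counted.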

Additional observations from a re-analysis of the deposited data

Results flagged for a closer look

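Reads outside the gene counts were listed in separate lines, which by their nature hold many reads. Reads that match several places made up 37.6% of all reads in library 2 and 36.9% in library 1, unmapped reads 9.26% in library 2 and 8.03% in library 1, and reads in no annotated miRNA gene 2.09% in library 2 and 1.70% in library 1. The line for ambiguous reads, filled where strand is ignored, is described with Mir378a. Mir378a and Mir378c share 20 bases and Mir378b shares 19 with both, and how many reads of the family lie in the line for several places was not tested.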

How the results depend on the processing

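With strand ignored, Mir378a went to 0 CPM and rank 714 and the family share to 0.00432%. Mir378b, Mir378c and Mir378d kept their reads, and the smaller gene total put them at 7.14, 28.8 and 7.20 CPM. With all reads as denominator the levels were 30297 CPM for Mir378a, 13.2 for Mir378c, 3.31 for Mir378d and 3.28 for Mir378b, and the family share was 3.03%. The larger denominator accounts for this. Each library alone gave 56077 to 59971 CPM for Mir378a, 20.6 to 30.0 for Mir378c, 6.0 to 6.64 for Mir378d, 5.53 to 7.0 for Mir378b, a family share of 5.61% to 6.0% and rank 3, with no test. At 10 CPM in both libraries 2 Mir378 genes were detected. With 1 count in either library 740 genes were tested, and Mir378a at 0.00477 (adjusted p = 0.512) and Mir378c at 0.45 (adjusted p = 0.0648) were no longer called by the exact test. Their counts were unchanged, while the TMM factor went from 1.008 to 1.032 in library 2 and from 0.992 to 0.969 in library 1. Why the factors moved was not tested. Otherwise the ratio of Mir378a ranged from 0.04 with DESeq2 size factors to 0.11 with genes at 10 CPM. Ignoring strand left no reads of Mir378a for a ratio, and the 10 CPM filter left Mir378b and Mir378d untested. With DESeq2 size factors 43.5% of called genes were higher in library 2 and with library totals 55.6%. Apart from the overlapping Gm25301, stretches of 24 bases were shared with another counted gene by 0 members, and of 18 bases by 3. Of 65 recomputed values, 51 held. Among these are the levels and family shares of each library alone, which with 2 libraries could only hold by the rule used. Counts of genes held if they stayed within a set margin. By that rule the fall from 4 to 3 detected Mir378 genes with strand ignored held, although Mir378a itself was lost. The rise from 2 to 3 members sharing a stretch, at 18 bases, held too. No paired analysis was possible because the series has 1 group. Depth limits Mir378b and Mir378d most, with 24 to 39 reads a library.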
